A study of Bos taurus with 3 samples.

Results

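HIPK3, DYRK2, MAPK8, PPM1G, PPP3R1 and XIAP encode protein kinases, a phosphatase, a phosphatase subunit and an inhibitor of apoptosis, and all of them carried Argonaute sites in bovine retina. They were chosen by gene name from a deposited list of Argonaute sites, and 14 of its 402 sites were in these 6 of 280 named genes. Being listed means having a peak in each replicate, so the presence of sites in these genes is not a finding. The sites were found by HITS-CLIP, in which ultraviolet light links RNA to the proteins that hold it and the RNA that comes down with Argonaute is sequenced. The samples were 3 replicates of 1 group, dissected retina from cattle of mixed strain, triturated to clusters of cells before crosslinking, without a control. Whether each replicate was a different animal is not stated in the labels, and the spread between them may be technical only.

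Argonaute proteins carry microRNAs (miRNAs), which pair with short stretches of a messenger RNA, most often in its 3' UTR, and lower its translation or its stability. Reversible phosphorylation is the switch on which much cell signalling runs: kinases add a phosphate to a protein and phosphatases take it off. Stress kinases of the JNK family, the calcium-activated phosphatase calcineurin and the inhibitors of caspases are known for their parts in the survival and death of neurons, photoreceptors included.

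Of the 14 sites, 12 lay in 3' UTRs (85.7%), 1 in coding sequence and 1 in an intron, by the authors' location classes. In the whole list, the 3' UTR held 223 of 402 sites (55.5%), coding sequence 81 and introns 34. The genes differed in their number of sites: HIPK3 had 4, PPP3R1 and XIAP had 3 each, DYRK2 had 2, and MAPK8 and PPM1G had 1 each. Thus 4 of the 6 genes had more than 1 site, against 50 of the 280 named genes (17.9%). HIPK3, PPP3R1 and XIAP are among the 8 named genes of the list with 3 or more sites in the 3' UTR. The tags, sequenced fragments assigned to a peak, summed to 311, 309 and 184 over the 14 sites in replicates 1, 2 and 3, out of 6421, 5779 and 4114 in all listed sites. That is 4.89% ± 0.439 of the listed tags (SD, n = 3) in 3.48% of the sites. Since the genes were chosen with earlier results of these data known, these counts and shares describe them and were not tested.

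**Figure D1:**
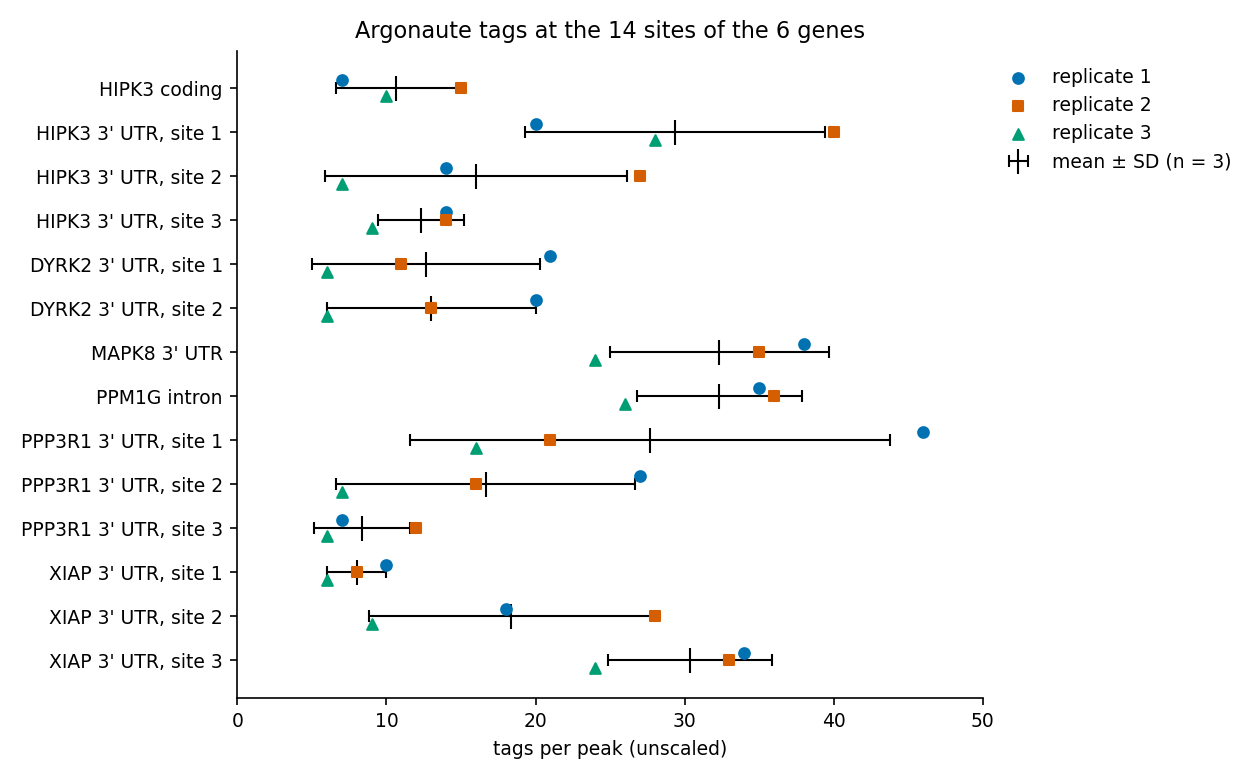
Tags per peak on the horizontal axis, unscaled, for each of the 14 sites, with 1 point per replicate and the mean ± SD (n = 3) as a bar with a tick. Sites of a gene are numbered within a location class in the direction of the tagged strand. The sites of MAPK8 and PPM1G and site 3 of XIAP have 24 or more tags in every replicate. PPP3R1 site 1 has the widest spread, 46, 21 and 16 tags.

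HIPK3, a homeodomain-interacting protein kinase that phosphorylates nuclear proteins, had the most sites of the 6 genes. Over its 4 sites on the plus strand of chromosome 15 it had 55, 96 and 54 tags in replicates 1, 2 and 3, or 68.3 ± 24 (SD, n = 3), rank 8 of the 280 named genes by summed tags. That mean was the highest of the 6 genes and rested on replicate 2: without it HIPK3 and PPP3R1 both had 54.5 tags, and in replicate 1 PPP3R1 and XIAP had more, 80 and 62. The first site in its 3' UTR (63621136 to 63621462, in coordinates of a build that the labels leave unnamed) had 20, 40 and 28 tags, or 29.3 ± 10.1. The second 3' UTR site (63622364 to 63622613) had 14, 27 and 7 tags, or 16 ± 10.1. At this site replicate 2 had more tags than the other replicates together, and without it the mean was 10.5. The third 3' UTR site (63624052 to 63624165) had 14, 14 and 9 tags, or 12.3 ± 2.89. The site in the coding sequence (63566927 to 63567058) had 7, 15 and 10 tags, or 10.7 ± 4.04, where coding sites of the whole list had a median of 9. The summits of the 3' UTR sites were 1059.7 ± 20.03 nt and 1694 ± 12 nt apart (SD, n = 3), and the coding site lay 54407 ± 19.3 nt upstream of the first of them in the genome, a distance that counts any introns between them.

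The first 3' UTR site of HIPK3 had more tags than the other 3' UTR sites of the gene in all 3 replicates. It was also the longest, with peaks of 175, 286 and 232 nt in replicates 1, 2 and 3. Per length its lead was gone: it had 12.5 ± 1.33 tags per 100 nt of peak, the second site 11.8 ± 1.86, the third 13.8 ± 1.34 and the coding site 16.1 ± 4.38 (SD, n = 3 each). The ranges of these per-length values over the replicates overlapped between all 4 sites.

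DYRK2, a dual-specificity kinase that phosphorylates p53 in human cells, had 2 sites of nearly equal height in its 3' UTR on the minus strand of chromosome 5. The site nearer the 5' end (49766218 to 49766371) had 21, 11 and 6 tags in replicates 1, 2 and 3, or 12.7 ± 7.64. The site nearer the 3' end (49764724 to 49764828) had 20, 13 and 6 tags, or 13 ± 7. Both sites were high in replicate 1 and low in replicate 3, and their difference was far smaller than the spread between replicates. Their summits were 1502 ± 19.7 nt apart (SD, n = 3). The tags in the second site were more concentrated in replicate 1: there it reached 29.0 tags per 100 nt of peak, against 12.5 and 8.57 in replicates 2 and 3.

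MAPK8, the stress-activated kinase JNK1, had 1 site, in its 3' UTR on the plus strand of chromosome 28 (42569192 to 42569352). It had 38, 35 and 24 tags in replicates 1, 2 and 3, or 32.3 ± 7.37 (SD, n = 3), and shared rank 17 of 402 by mean tags with the PPM1G site. The 3 peaks of this site had the same last base, 42569352, and 111 bases in common. Divided by the scaling of the replicates (the median ratio over all sites), its tags were 31.8, 33.5 and 31.6. By this scaling the replicates were nearly level. The nearest listed site of another gene was 556932 nt away, in RBP3 on the opposite strand.

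PPM1G, a metal-dependent serine/threonine phosphatase of the nucleus, was the only one of the 6 genes with a site in an intron. Its site, on the plus strand of chromosome 11 (74301870 to 74301991), had 35, 36 and 26 tags in replicates 1, 2 and 3, or 32.3 ± 5.51 (SD, n = 3). That was the highest mean among the 34 intron sites of the list, whose median was 7.83 tags. The 3 summits of the site lay within 2 nt of each other, where the median spread of summits over all sites was 9 nt. Its peaks were not short: they were 121, 93 and 70 nt long, or 94.7 nt on average. The median of the mean length over all sites was 73.5 nt. The PPM1G site had 34.9 ± 5.26 tags per 100 nt of peak, rank 3 of 402, against a median of 14.8 over all sites. The gene table of assembly ARS-UCD2.0 lists no other gene that overlaps PPM1G. The name and the intron class are the authors'.

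PPP3R1, the calcium-binding regulatory subunit (calcineurin B) of the phosphatase calcineurin, had 3 sites in its 3' UTR on the minus strand of chromosome 11. Going from 5' to 3', the first site (68473129 to 68473310) had 46, 21 and 16 tags in replicates 1, 2 and 3, or 27.7 ± 16.1. The second (68472243 to 68472360) had 27, 16 and 7 tags, or 16.7 ± 10.02. The third (68472105 to 68472158) had 7, 12 and 6 tags, or 8.33 ± 3.21. This order of tags was kept in every replicate, while the means of the first and second differed by less than the SD of the first. The first and second sites were highest in replicate 1, and the third in replicate 2. The summits of the second site and the third were 163 ± 5.03 nt apart, the closest pair of neighbouring sites among the 6 genes, and those of the first and second were 894 ± 10.8 nt apart. Per 100 nt of peak the 3 sites had 25.1 ± 14.2, 19 ± 5.54 and 18 ± 5.51 tags in the same order, and in replicate 3 the first was no longer the highest.

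XIAP, which binds caspases and blocks their activity, had 3 sites in its 3' UTR on the minus strand of a scaffold that the authors' build does not place on a chromosome. The first site from the 5' side (684841 to 684974) had 10, 8 and 6 tags in replicates 1, 2 and 3, or 8 ± 2. The second (684391 to 684590) had 18, 28 and 9 tags, or 18.3 ± 9.50. The third (682409 to 682633) had 34, 33 and 24 tags, or 30.3 ± 5.51. Tags therefore increased towards the 3' end in each replicate, the opposite direction to PPP3R1. The same order held in tags per 100 nt of peak in all 3 replicates, at 10.6 ± 1.48, 14.7 ± 2.05 and 18.1 ± 3.40 (SD, n = 3). By another per-length measure, given below, it did not hold in replicate 2. With 3 replicates a two-sided exact paired permutation test cannot give a p below 0.25, so the order of sites within a gene was not tested. The neighbouring summits were 423 ± 14 nt and 1958 ± 17.6 nt apart. The summits of the second site lay up to 39 nt apart between replicates, which was the largest spread in the list, shared by 2 of the 402 sites. XIAP overlaps 3 other genes in the ARS-UCD2.0 gene table: a pseudogene, a protein-coding gene and a small nucleolar RNA gene. Whether tags of the sites could belong to them was not tested.

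**Figure D2:**
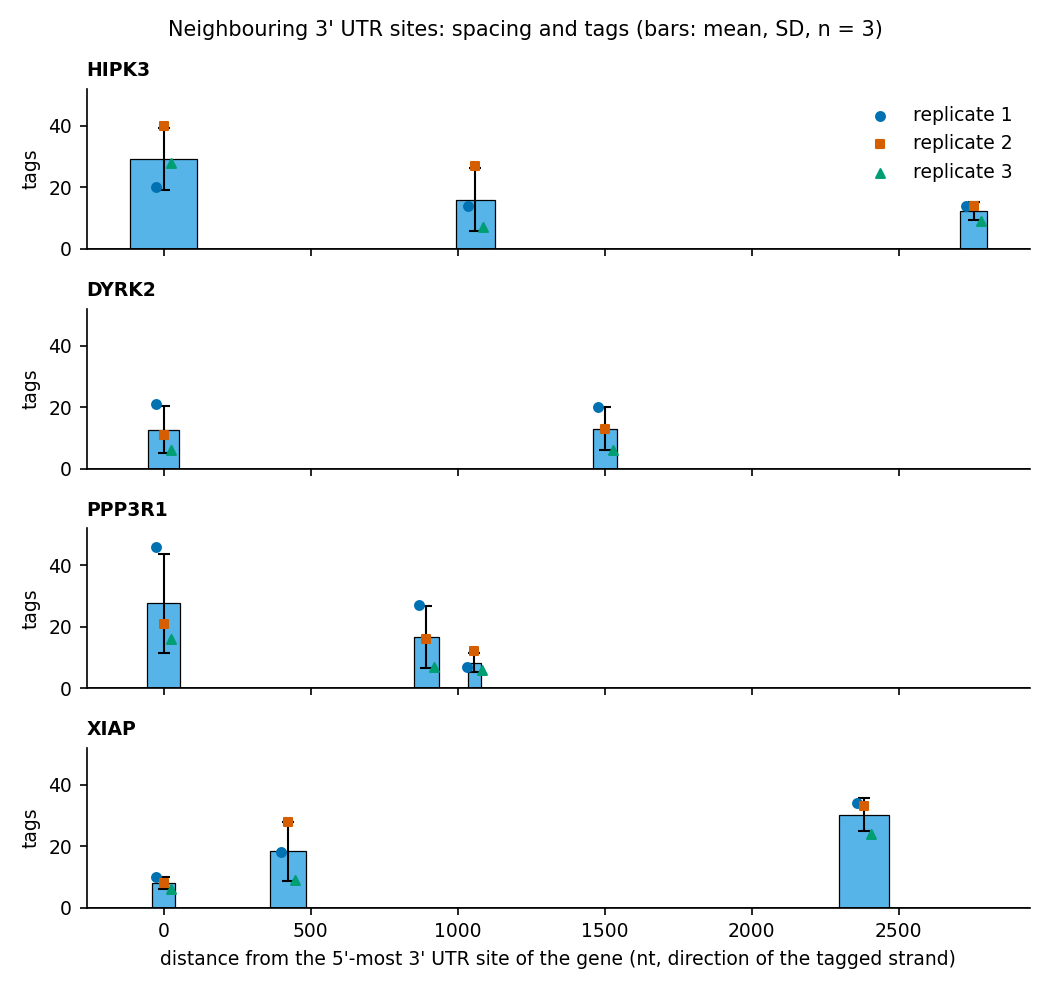
Tags per site (vertical axis, mean with SD over 3 replicates as bars, points for each replicate shifted sideways for clarity) against the distance in nt from the 5'-most 3' UTR site of the gene, with the bar's width equal to the mean peak length. The tallest site is the 5'-most one in HIPK3 and PPP3R1 and the 3'-most one in XIAP, and the DYRK2 sites have means of 12.7 and 13 tags.

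Neighbouring 3' UTR sites of the same gene were thus between 163 and 1958 nt apart in HIPK3, DYRK2, PPP3R1 and XIAP. Over all 90 neighbouring pairs of sites in named genes, of any location class, the median was 1500.5 nt. Between the neighbouring 3' UTR sites of these genes the SD of the distance over replicates was 5.03 to 20.03 nt. Small SDs are no finding, since the peaks of every listed site overlap and its summits differed by at most 39 nt. The 3 peaks of a site shared between 33 bases, at the first XIAP site, and 171 bases, at the first HIPK3 3' UTR site. The median number of shared bases was 64 in the 14 sites and 46 in all sites, and the median spread of the summits was 16 nt and 9 nt in the same order. Peaks were longer in the 14 sites, with a median of the mean length of 100.7 nt against 73.5 nt over all sites.

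By mean tags the 14 sites had a median of 16.3, against 10.3 over all 402 sites, and 12 of the 14 were above the median of all sites. Their 3' UTR sites alone also had a median of 16.3 tags, where all 3' UTR sites had 11.3. The genes were put together with such values known, so these medians describe them and were not tested. The tallest sites of MAPK8, PPM1G, XIAP, HIPK3 and PPP3R1 were among the 40 tallest of the list, while both DYRK2 sites, at ranks 122 and 133, were not. The lowest were the first XIAP site and the third PPP3R1 site, at ranks 279 and 265 of 402. Per length the contrast with the list was smaller: the 14 sites had a median of 16.4 tags per 100 nt of peak, and all sites had 14.8.

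A second measure of height came from the fold enrichment that the authors give for each peak. It was a whole multiple of a fixed step for each strand and replicate, and the multiple is called the summit height here, which the file headers do not name. PPM1G had summit heights of 20, 19 and 15 in replicates 1, 2 and 3, or 18 ± 2.65 (SD, n = 3), rank 3 of 402. A height of 20 was the highest of any of the 1206 peaks and was reached by 10 of them, so PPM1G stood at this ceiling in replicate 1. MAPK8 had 17, 12 and 9, or 12.7 ± 4.04, at rank 30. The third XIAP site had 15, 14 and 12, or 13.7 ± 1.53, at rank 21, and the first PPP3R1 site had 19, 12 and 9, or 13.3 ± 5.13, at rank 26. The first HIPK3 3' UTR site stood apart from these. Its summit heights were 7, 10 and 9, or 8.67 ± 1.53, which put it at rank 86 in place of 25 by tags. Its tags were spread over the longest peaks among the 14 sites, 231 ± 55.5 nt on average.

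**Figure D3:**
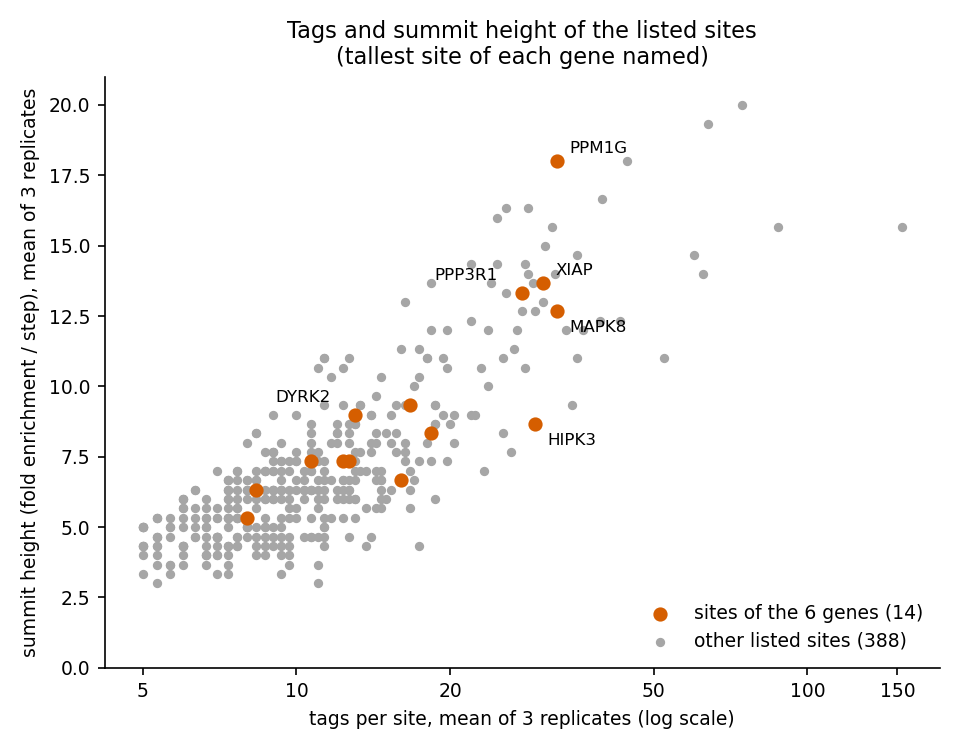
Mean summit height (fold enrichment divided by its step) against mean tags per site on a log axis, each over 3 replicates, with the 14 sites of the 6 genes in orange, the tallest of each gene named, and the other 388 listed sites in grey. PPM1G lies near the top of the plot at 18, and the tallest HIPK3 site lies low for its 29.3 tags at 8.67.

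Whether a site's tags differed between replicates by more than counting noise was asked with an exact multinomial test, with Benjamini-Hochberg adjustment over all 402 sites. None of the 14 sites passed an adjusted p of 0.05, where 20 of 402 sites did (4.98%). The lowest −10 log10 p that the authors give for any listed peak was 200.02. A site with a weak peak in any replicate may thus be missing from the list, which the test does not take into account. At an unadjusted p under 0.05 there were 4 of the 14, and 59 of 402 (14.7%). These 4 were the first and second HIPK3 3' UTR sites, the first PPP3R1 site and the second XIAP site. The first HIPK3 3' UTR site came nearest (exact multinomial test, adjusted p = 0.0552). Its scaled tags were 16.7, 38.3 and 36.8 in replicates 1, 2 and 3. Under scaling by the steps of the fold enrichment, an alternative added after seeing the data, this site passed (exact multinomial test, adjusted p = 0.00276), and 24 of 402 sites did (5.97%). With the peak's length taken into account in each replicate it was far from passing (exact multinomial test, adjusted p = 0.844), and 2 of 402 sites passed (0.498%). Its peak was longest, 286 nt, in the replicate with the most tags. The longest peak held the most tags at 273 of all 402 sites (67.9%) and at 9 of the 14 (64.3%). Length and tags thus went together, so the setting with peak length cannot separate a difference in tags from one in length.

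In HIPK3 and DYRK2 the sites of a gene were high in the same replicate after scaling by the median ratio. In HIPK3 all 4 sites had their highest value in replicate 2 by the median ratio, though not by the fold enrichment steps, with 36.3% to 55.3% of the site's scaled tags there. The peaks of all 4 HIPK3 sites were also longest in replicate 2. In the whole list, too, the longest peak of a site held the most unscaled tags at 273 of 402 sites (67.9%). Per 100 nt of peak, unscaled, replicate 2 was the highest at 1 of the 4 sites. With peak length in the expected shares the adjusted p of the 4 sites ran from 0.766 to 0.989 (exact multinomial test). These values cannot separate tags from length, since length and tags went together over the list. In DYRK2 both sites were highest in replicate 1, with 48.8% and 45.1% of their scaled tags. In PPP3R1 the first and second sites had 48.3% and 47.9% of theirs in replicate 1, and the third had 45.6% in replicate 2. MAPK8, PPM1G, the third HIPK3 3' UTR site, and the first XIAP site and the third were spread most evenly, with 29.9% to 36.3% in each replicate. None of the 14 sites was highest in replicate 3 after scaling by the median ratio, against 144 of all 402 sites. This depended on the scaling: by the fold enrichment steps, 7 of the 14 sites and 224 of the 402 were highest in replicate 3, and these included 3 of the 4 HIPK3 sites, while both DYRK2 sites and the first and second PPP3R1 sites were highest in replicate 1 under either scaling. Sites of 1 gene come from the same transcripts and libraries and are not independent of each other.

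**Figure D4:**
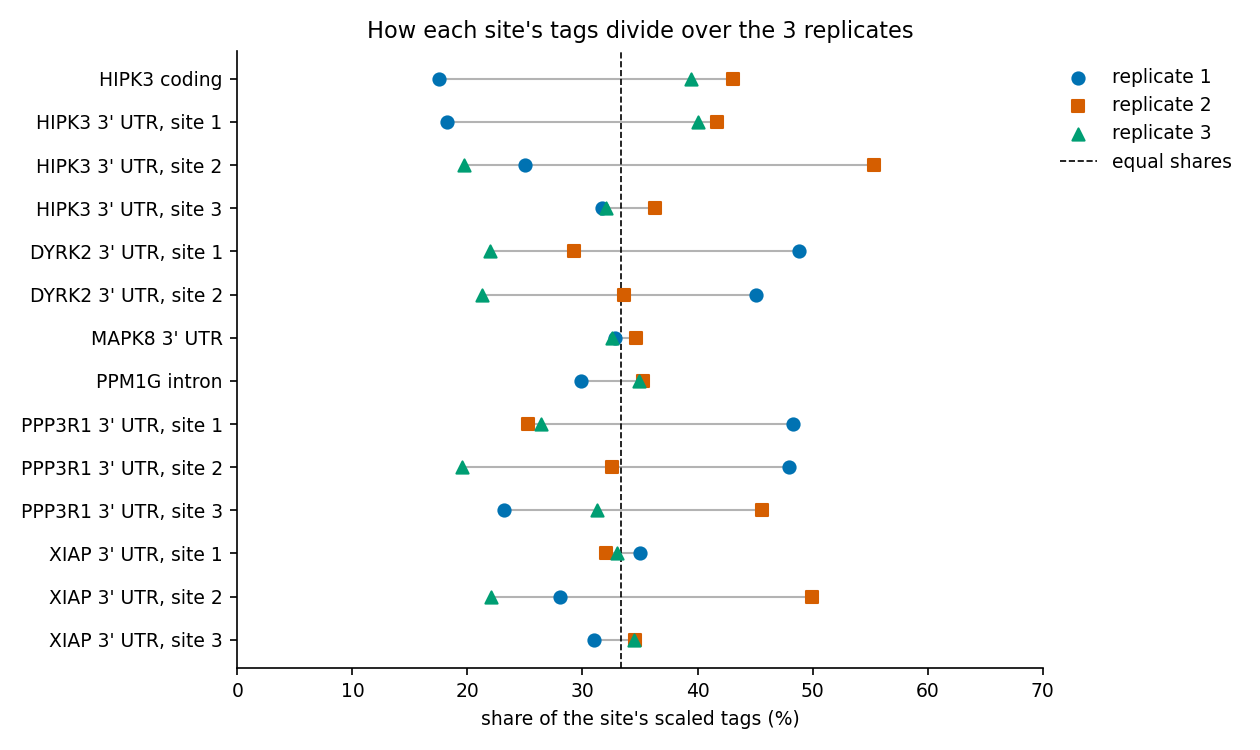
Share of each site's tags in each of the 3 replicates, in percent, after scaling by the median ratio over all sites; the dashed line marks equal shares. HIPK3 sites lie furthest right in replicate 2, which the fold enrichment steps change for 3 of the 4. DYRK2 sites lie furthest right in replicate 1 under either scaling. MAPK8 lies between 32.6% and 34.6% in all 3 replicates, though the fold enrichment steps put it highest in replicate 3.

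Counting error was large at the lower sites. The lowest count among the 14 sites, 6 tags, has an exact 95% Poisson interval of 2.20 to 13.1, and the highest, 46 tags at the first PPP3R1 site, one of 33.7 to 61.4. These intervals cover counting error only, and no molecular identifiers are described. Every peak of the list was longer than its number of tags by 19 nt or more, so a short peak held few tags. Neither the intervals nor the multinomial test under the median ratio takes this bound into account. Tags were also taken as a share of the number that this bound allows. On average over replicates they ran from 13.6% at the first HIPK3 3' UTR site to 44.6% at PPM1G. The median was 21.4% in the 14 sites and 23.7% in all.

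Of 148 further genes in 7 lists of kinases, phosphatases and apoptosis genes, 4 had a site (2.70%). Of the 21664 protein-coding genes in the gene table, 239 had one by symbol (1.10%). The lists were written with earlier results of these data known, so these shares were not tested and say nothing particular about these pathways. Among 9 DYRK and HIPK kinases, HIPK1 and HIPK2, the close relatives of HIPK3, had 2 sites each beside HIPK3 and DYRK2. The taller HIPK1 site, in the 3' UTR, had 7, 13 and 14 tags in replicates 1, 2 and 3, or 11.3 ± 3.79, and the taller HIPK2 site, in coding sequence, had 7, 8 and 6, or 7 ± 1. So 3 of the 4 HIPK kinases on that list were bound, and the tallest HIPK3 site had the most tags. In the MAP kinase cascade 2 of 37 genes had a site, MAPK8 and MAP3K1, a kinase that acts upstream of JNK, with 11, 10 and 4 tags, or 8.33 ± 3.79, in its 3' UTR. PPM1G was the only one of 19 genes of its phosphatase family with a site. PPP3R1 was the only one of 17 genes of the calcineurin pathway, and neither its catalytic subunits nor the NFAT factors that they activate were listed. Of 10 other catalytic subunits of phosphatases 1 had a site, PPP2CA of protein phosphatase 2A, with 14, 6 and 8 tags in its 3' UTR, or 9.33 ± 4.16. XIAP was the only one of 30 apoptosis genes, which include the other inhibitor of apoptosis proteins, the caspases and the BCL2 family. None of 32 other signalling kinases had a site. Only peaks that met the authors' criteria are listed and mRNA was not quantified, so genes off the list may still be bound.

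The list bore the marks of retina: 10 of 12 photoreceptor markers had a site, rhodopsin and rod transducin among them. Of 29 markers of Müller glia, other retinal neurons, pigment epithelium, blood, microglia and vessels, 0 did. With a site in only 1.1% of all protein-coding genes, 0 of 29 says nothing particular about those cell types. The files name no cell type, so the cells in which the 6 transcripts were bound are not known from them. In bulk tissue, fewer cells of a type and less RNA per cell cannot be told apart.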

How the data were processed

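Argonaute HITS-CLIP libraries of bovine retina, 3 replicates, were used as 2 deposited tables, 1 per strand, that pair each site with its peak in each replicate. CASAVA 1.8.1 and GSNAP are listed in the submitters' processing notes, with no role for either; no peak caller, genome build or site filter is named there. Per the file headers, tags are a count per peak, the p-value is given as 10 times its −log10, and fold enrichment is a ratio over an undescribed background. Coordinates are the outermost ends of the 3 peaks, counted as in the deposited tables.

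Gene names were upper-cased, and sites named unclear were kept as unnamed. Heights are mean tags ± SD, unscaled. Replicates were scaled by the median ratio over sites, with factors of 1.20, 1.04 and 0.761 in replicates 1 to 3, for an exact multinomial test on all 402 sites, which was tested on simulated data. Of the 280 names, 258 matched a symbol and 10 a synonym in the NCBI RefSeq gene table of ARS-UCD2.0, used for names and overlapping genes only. Every site of the 6 genes is described, and of each list every gene with a site. The members and lists were chosen with earlier results of these data known. Depth is known only as tags in the listed sites, which is not the depth of the libraries. Alternatives were each replicate left out, other scalings, peak length, a stricter threshold, a larger overlap, merged sites and synonyms. The work was done in Python 3.11.15 with scipy 1.17.1, pandas 2.3.3 and numpy 2.4.6, and figures were drawn with matplotlib 3.10.9.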

Additional observations from a re-analysis of the deposited data

How the results depend on the processing

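The 14 sites fell to 5 with −10 log10 p of at least 500 in all 3 replicates (35.7%, against 57 of 402 or 14.2% in the whole list), namely the tallest sites of HIPK3, MAPK8, PPM1G, PPP3R1 and XIAP. They fell to 9 where the shared bases had to cover at least 0.5 of the longest peak (64.3%, against 196 of 402 or 48.8%), and to 11 with sites of 1 gene within 1000 nt merged. The median height of the 14 sites, 16.3 tags, ran from 13.5 to 21 with 1 replicate left out and was 15.6 with tags scaled to the listed totals. Of the 14 sites, 0 differed between replicates by the exact multinomial test with listed totals, with peak length and without each replicate. With the fold enrichment steps 1 did, the first HIPK3 3' UTR site, and the cause was not tested. Over all 402 sites the count of 20 became 2 with peak length, and 6, 8 and 12 without replicate 1, 2 and 3, where fewer tags entered each test. Matching by synonym left the number of listed genes on the 7 lists at 10. No paired analysis was possible because the only group leaves no second one to share its replicate numbers; sites of 1 gene do share replicates, and their order within replicates was given without a test. With 6 to 46 tags per peak, counting error limits each comparison of single sites.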
